A study of Arabidopsis thaliana with 12 samples.

Results

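Proline is made and broken down by a small set of enzymes, and 9 Arabidopsis thaliana genes for them and for proline carriers were chosen by locus: P5CS1, P5CS2, P5CR, PDH1, PDH2, P5CDH, OAT, ProT1 and ProT2. Of the 9, 8 were in both gene count tables, among 19714 genes that the tables share, and PDH2 (AT5G38710) was in neither table. The study compared seedlings germinated in liquid culture in flasks for 5 days, wild type (Columbia-0, Col-0) and the insertion line atg5 (SALK_020601C), which carries an insertion in ATG5, an autophagy gene. Autophagy is the delivery of cell contents to the vacuole for recycling. The control medium, called NM, held Murashige salts and 0.5% sucrose, and the water stress medium, called WSM, was the same with 2.5% glycerol and 0.5% alginic acid added. The design text gives the question as how gene expression differs between normal supply and shortage of water. Counts came from 3 libraries of wild type in NM, 2 of wild type in WSM, 2 of atg5 in NM and 3 of atg5 in WSM, named here by the number in their column.

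Plants make proline from glutamate in the cytosol and plastids. P5CS, Δ1-pyrroline-5-carboxylate synthetase, makes pyrroline-5-carboxylate (P5C) from glutamate, and P5CR reduces P5C to proline. In mitochondria PDH, proline dehydrogenase, turns proline back into P5C and P5CDH oxidises P5C to glutamate, while OAT, ornithine aminotransferase, makes the same intermediate from ornithine. ProT1 and ProT2 are plasma membrane carriers of proline and other compatible solutes. Proline is known to accumulate in Arabidopsis under water deficit, with P5CS1 as the synthetase gene known to respond to stress and PDH1 known to be repressed by low water and induced by proline.

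Promoters are shown for the 3 member genes whose levels as counted stood furthest apart between the media. P5CDH counts hold reads shared with SRO5, its opposite-strand neighbour treated below. Separated from SRO5, P5CDH had log2 values for WSM against NM of 0.37 in wild type and 0.42 in atg5, where OAT had -0.0079 and -0.63. The sequences are the 250 bases before the annotated starts, printed 5′ to 3′ on the gene's strand, from the RefSeq TAIR10.1 genome. They lie at chr3:12451557-12451806 (minus strand) for PDH1, chr5:25103313-25103562 (minus strand) for P5CDH and chr2:16655327-16655576 (plus strand) for ProT1. Capitals mark ACTCAT, known as the proline-responsive element and bound by some bZIP factors, in PDH1 and P5CDH, and ACGTG, the core of the abscisic acid responsive element, in ProT1, on either strand.
PDH1: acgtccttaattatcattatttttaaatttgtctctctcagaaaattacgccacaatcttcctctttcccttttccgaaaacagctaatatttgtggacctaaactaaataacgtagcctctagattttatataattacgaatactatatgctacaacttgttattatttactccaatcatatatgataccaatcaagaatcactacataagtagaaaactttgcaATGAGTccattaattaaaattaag
P5CDH: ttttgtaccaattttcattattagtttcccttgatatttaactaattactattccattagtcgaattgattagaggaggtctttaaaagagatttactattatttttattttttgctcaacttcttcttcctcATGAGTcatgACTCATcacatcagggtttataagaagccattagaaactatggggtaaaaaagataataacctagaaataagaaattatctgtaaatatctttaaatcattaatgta
ProT1: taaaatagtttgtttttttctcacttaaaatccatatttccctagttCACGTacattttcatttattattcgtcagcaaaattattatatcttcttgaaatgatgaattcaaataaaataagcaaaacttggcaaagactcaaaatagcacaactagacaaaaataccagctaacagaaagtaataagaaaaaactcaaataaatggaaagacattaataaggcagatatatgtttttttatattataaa
PDH1 held ACTCAT 1 time, 24 bases before its start on the reverse strand. P5CDH held it 2 times, on the reverse and then the forward strand, starting 117 and 107 bases before its start, with no overlap between the 2 matches. Among 27438 promoter windows of this length in the genome 12.3% held ACTCAT and 22.9% held ACGTG. Of the 9 genes PDH1 and P5CDH held ACTCAT, and ProT1 and P5CR held ACGTG. These are matches of letters, and binding was not measured.

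Libraries totalled 8928632 to 24022759 counts, of which 19.0% to 65.5% lay in 27 genes of the rRNA regions. Library 1 of atg5 WSM had the fewest counts outside these regions, 3079551, against 7367748 to 16645902 in the others, and stood apart on the second principal component. ATG5 was at 20.2 to 30.8 CPM in wild type and 20.5 to 31.7 CPM in the libraries labelled atg5 (CPM scales counts to a common library total, here with TMM factors), and a count over the whole gene does not check an insertion. The libraries labelled atg5 differed at PREP1, a peptidase gene, with 2 and 0 counts in atg5 NM and 4 in atg5 WSM library 2, but 349 and 2412 in atg5 WSM libraries 1 and 3. Wild-type libraries held 753 to 2668. Log2 values of the members, as counted, that use atg5 WSM and move by over 1.5 times without libraries 1 and 3 are given also without them, beside the result or in the closing section. Such values rest on library 2 as the only atg5 WSM library, with no spread within that group. Leaving out 1 library of wild-type WSM or of atg5 NM likewise leaves 1 in that group. Log2 values of other genes are given with libraries 1 and 3 included. Of the 3 leaf genes RBCS1A had group means of 3966 to 5301 CPM. The antenna gene LHCB1.3 had means of 8410 CPM in wild-type NM and 7564 CPM in wild-type WSM, but 3694 CPM in atg5 NM and 7532 CPM in atg5 WSM. The atg5 NM libraries lay below both the wild-type NM and the atg5 WSM libraries, at log2 values of -1.19 for genotype in NM and 1.03 for medium in atg5 (edgeR adjusted p = 0.246 and 0.161). LHCB2.1, another antenna gene, had means of 943 CPM in wild-type NM, 722 CPM in wild-type WSM, 527 CPM in atg5 NM and 841 CPM in atg5 WSM. The seed storage genes CRA1 and CRC were at 942 to 1423 CPM and 498 to 677 CPM in the wild-type libraries, and at 3.76 to 83.0 CPM and 2.91 to 36.7 CPM in those labelled atg5. CRA1 had log2 values of -6.40 in NM and -5.23 in WSM for genotype (edgeR adjusted p = 0.0932 and 0.238). The seed genes CRB and SESA1 were at or under 4.14 CPM in every library. These differences lie between the same groups as the atg5 results given here, and their part in them was not tested. The endodermis gene CASP1 was called lower in wild-type WSM, at 45.1 CPM in NM and 21.0 CPM in WSM (log2 -1.10, edgeR quasi-likelihood, adjusted p = 0.0433 by Benjamini-Hochberg). In atg5 it overlapped and was not called (log2 -0.45, edgeR adjusted p = 0.332). EXPA7, the other root gene, was not called in either genotype. It had log2 values of -1.395 in wild type and -1.27 in atg5 (edgeR adjusted p = 0.320 and 0.329). In atg5 WSM it ran from 2.04 to 32.9 CPM. The part of both genes in the results was not tested. In bulk tissue fewer cells of a type and less RNA per cell cannot be told apart. The labels do not say that replicates came from separate flasks, so the spread behind each p-value is that between these samples and may be technical.

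**Figure D1:**
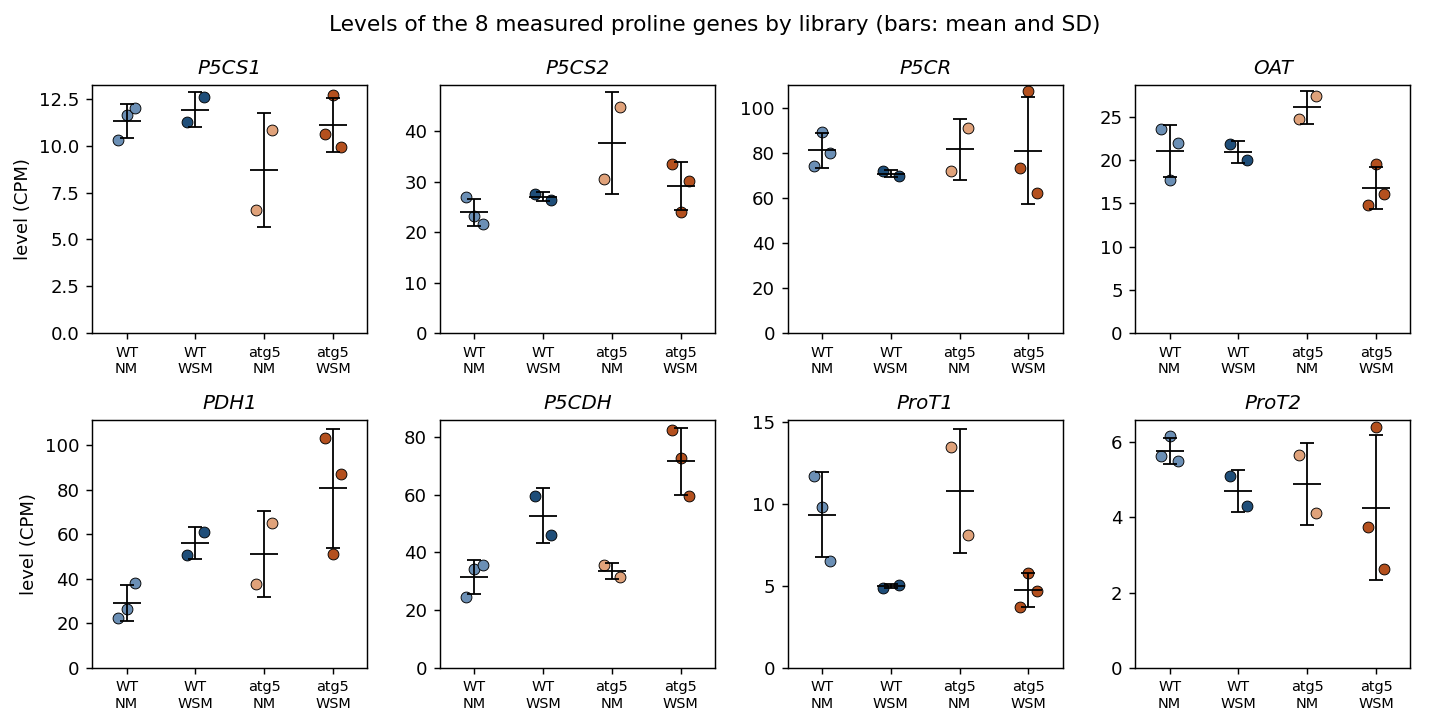
Levels of the 8 measured genes in each library (CPM, linear axes from 0), with group means and SDs as bars. P5CS1 lay between 6.57 and 12.7 CPM in all 10 libraries, while PDH1 and P5CDH were higher in both wild-type WSM libraries than in all 3 wild-type NM libraries. Groups stood apart for 56.8% of all genes in that comparison.

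Compared per kilobase of exon, P5CR was the most abundant of the 8 transcripts in every group. In wild-type NM it stood at 56.3 CPM per kilobase. PDH1 followed at 13.3 ± 3.72 (SD, n = 3) and P5CDH at 12.1 ± 2.32 CPM per kilobase, and this pair did not differ beyond their spread. OAT stood at 9.36 ± 1.35 and P5CS2 at 8.59 ± 0.98 CPM per kilobase, again within their spread. ProT1, P5CS1 and ProT2 were lowest, at 4.39 ± 1.23, 3.81 ± 0.31 and 2.43 ± 0.14 CPM per kilobase, of which ProT1 and P5CS1 overlapped. In atg5 WSM P5CR stood at 56.2 ± 16.5 (SD, n = 3), PDH1 at 37.1 ± 12.3 and P5CDH at 27.6 ± 4.44 CPM per kilobase, where neighbours lay within their spread. In atg5 WSM library 2, the one with 4 PREP1 counts, P5CDH at 28.1 CPM per kilobase was above PDH1 at 23.6. All P5CDH levels in this paragraph are as counted and hold reads shared with SRO5, its opposite-strand neighbour treated below. Separated from SRO5, P5CDH in library 2 stood at 43.3 CPM over 2589 exonic bases. PDH1 stood there at 51.4 CPM over 2174 bases, so the order was then reversed. P5CS2 at 10.49 ± 1.71 and OAT at 7.46 ± 1.08 CPM per kilobase followed, and P5CS1 at 3.74 ± 0.49, ProT1 at 2.23 ± 0.48 and ProT2 at 1.79 ± 0.81 were lowest, the last pair within their spread.

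WSM against NM was compared in each genotype in 1 edgeR quasi-likelihood fit of all libraries, with a call at a Benjamini-Hochberg adjusted p under 0.05. In counts simulated with the spread of this fit, it called 5% of genes changed by a log2 of 1 in wild type and 6% in atg5. At a log2 of 2 it called 63% and 70%. A member that was not called is therefore not shown to be unchanged. In wild type 0 of 8 members were called by edgeR, where 5.89% of all 19714 genes were called, and 3 members had an unadjusted p under 0.05 (22.5% of all genes): PDH1, P5CDH and ProT1. DESeq2 called 1 of them, P5CDH, and of all genes it called 998 higher and 1173 lower in WSM. In libraries labelled atg5 1 of 8 was called, P5CDH, higher in WSM, where 7.86% of all genes were called. There P5CDH, OAT and ProT1 had an unadjusted p under 0.05 (25.2% of all genes), and DESeq2 called P5CDH and ProT1. Of all genes DESeq2 called 1681 higher and 978 lower in this comparison. The median log2 fold change of the members was 0.033 in wild type and -0.096 in atg5, and that of all genes 0.018 and -0.024.

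**Figure D2:**
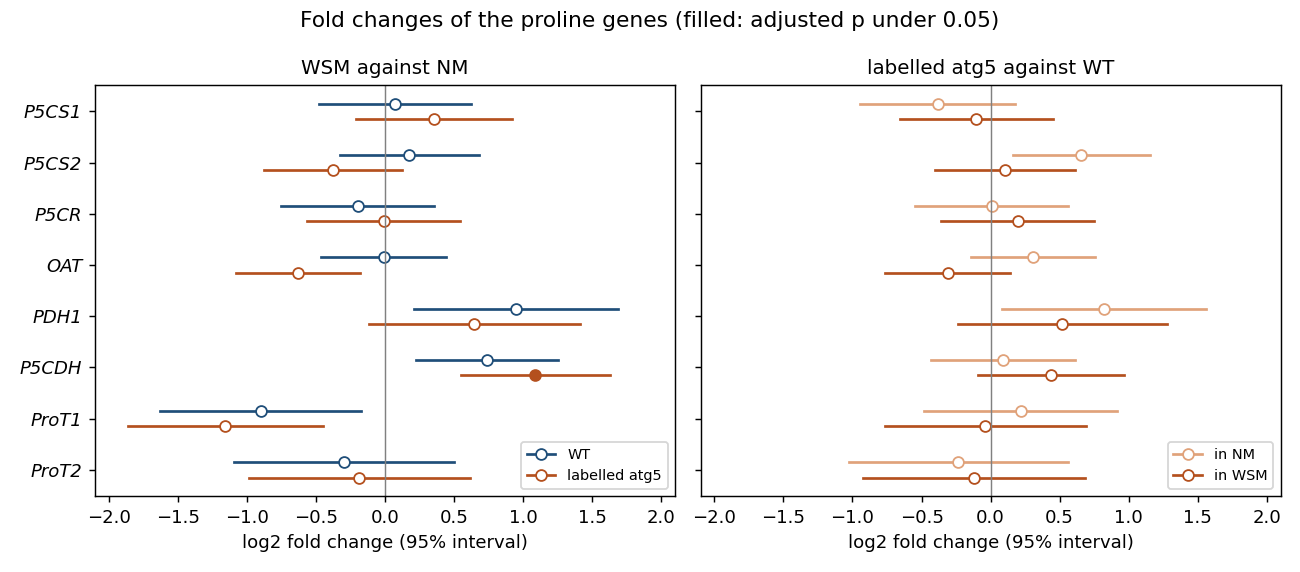
Log2 fold change of each member gene with its 95% confidence interval from the edgeR fit and a line at 0, for WSM against NM in each genotype (left) and for libraries labelled atg5 against wild type in each medium (right). The filled point, P5CDH in atg5 at 1.09, is the called value, as counted with reads shared with SRO5, its opposite-strand neighbour. After separation from SRO5 it was 0.42 and not called. The intervals of P5CS1, P5CR and ProT2 include 0 in all 4 comparisons.

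Among the genes of synthesis, P5CS1 (AT2G39800, chr2:16598072-16603319, minus strand), the synthetase known for its stress response, was at 10.3, 11.6 and 12.1 CPM in wild-type NM and at 11.3 and 12.6 CPM in wild-type WSM. These groups overlapped. The log2 fold change was 0.075 ± 0.25 (SE), with a 95% interval of -0.48 to 0.62 (edgeR quasi-likelihood, adjusted p = 0.893), which leaves a log2 of 1 outside. In libraries labelled atg5 P5CS1 was at 6.57 and 10.9 CPM in NM and at 10.6, 12.7 and 9.94 CPM in WSM. The groups overlapped here too, and the log2 fold change was 0.36 ± 0.26 (edgeR adjusted p = 0.420; 95% interval -0.21 to 0.92). This value rested on the atg5 NM pair, at 0.034 without library 1 and 0.76 without library 3, and it was 0.55 without atg5 WSM libraries 1 and 3.

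P5CS2 (AT3G55610, chr3:20624020-20629295, minus strand), the other synthetase and known as the housekeeping form, was at 26.9, 23.3 and 21.5 CPM in wild-type NM and 27.6 and 26.4 CPM in wild-type WSM. Its log2 fold change was 0.18 ± 0.23 (edgeR adjusted p = 0.688) and the groups overlapped. In atg5 it was at 30.5 and 44.9 CPM in NM and at 33.5, 24.1 and 30.1 CPM in WSM, which overlapped, with a log2 of -0.37 ± 0.23 (edgeR adjusted p = 0.341). Leaving out 1 library gave -0.63 to -0.070, and leaving out atg5 WSM libraries 1 and 3 gave -0.65. P5CR (AT5G14800, chr5:4785960-4787996, minus strand), which completes synthesis, was at 74.2, 89.6 and 79.9 CPM in wild-type NM and 71.9 and 69.8 CPM in wild-type WSM. The wild-type groups stood apart by a small margin, as those of 56.8% of all genes did, at a log2 of -0.20 ± 0.25 (edgeR adjusted p = 0.684). In atg5 P5CR overlapped, at 72.0 and 91.3 CPM in NM and 73.3, 107.8 and 62.1 CPM in WSM.

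Ornithine aminotransferase feeds the pathway from arginine breakdown. OAT (AT5G46180, chr5:18718417-18721744, minus strand) was at 23.6, 17.7 and 21.9 CPM in wild-type NM and 21.8 and 20.0 CPM in wild-type WSM. These overlapped, at a log2 of -0.0079 ± 0.21 (edgeR adjusted p = 0.987). In atg5 it was at 24.7 and 27.4 CPM in NM and at 14.8, 19.5 and 16.1 CPM in WSM, without overlap, as for 32.7% of all genes. The log2 was -0.63 ± 0.21 (edgeR adjusted p = 0.0867), and the call was not reached. Without atg5 WSM library 2 it was -0.76 (edgeR adjusted p = 0.0449), and without libraries 1 and 3, with library 2 alone, it was -0.42.

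On the side of breakdown, PDH1 (AT3G30775, chr3:12448636-12451556, minus strand), proline dehydrogenase, was at 22.3, 26.5 and 38.0 CPM in wild-type NM and at 50.9 and 61.3 CPM in wild-type WSM. Both WSM libraries were above all 3 NM libraries, as groups stood apart for 56.8% of all genes. The log2 fold change was 0.95 ± 0.34 (1.94-fold; 95% interval 0.21 to 1.69), and it was not called in the joint fit (edgeR adjusted p = 0.123). It was called in a fit of the wild-type libraries alone (edgeR adjusted p = 0.00443) and without atg5 WSM libraries 1 and 3 (adjusted p = 0.0481). Of all genes these fits called 2777 higher and 3009 lower, and 1260 higher and 1553 lower, in turn. The joint fit gives each gene 1 spread, shared by all groups. The authors' deposited table listed PDH1 at 0.94 in wild type with an adjusted p of 0.000239 and at 0.65 in atg5 with 0.536. In that authors' deposited table no member was marked as differentially expressed in either genotype, so the mark did not follow an adjusted p under 0.05 alone.

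PDH1 in libraries labelled atg5 was at 37.7 and 65.0 CPM in NM and at 103, 51.4 and 87.1 CPM in WSM. WSM library 2 lay between the NM libraries, and WSM libraries 1 and 3, the ones with PREP1 counts, lay above both. The log2 was 0.65 ± 0.35 with all libraries (edgeR adjusted p = 0.274) and 0.0024 without libraries 1 and 3, and their part in it was not tested. Leaving out 1 library gave 0.31 to 1.09.

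P5CDH (AT5G62530, chr5:25099003-25103312, minus strand), the second enzyme of breakdown, was at 24.5, 34.3 and 35.5 CPM in wild-type NM and at 59.4 and 45.9 CPM in wild-type WSM. The groups did not overlap, as for 56.8% of all genes. The log2 was 0.74 ± 0.24 (edgeR adjusted p = 0.0893), with a call by DESeq2 (adjusted p = 0.0456) and in a fit of the wild-type libraries alone (edgeR adjusted p = 0.0102). Of all genes DESeq2 called 998 higher and 1173 lower, and that fit called 2777 higher and 3009 lower. In libraries labelled atg5 it rose in WSM, from 35.5 and 31.5 CPM in NM to 82.4, 72.7 and 59.5 CPM. All 3 WSM libraries were above both NM libraries, as groups stood apart for 32.7% of all genes. The log2 was 1.09 ± 0.25 (2.13-fold, edgeR adjusted p = 0.0223). Without libraries 1 and 3, which leaves library 2 alone in atg5 WSM, the log2 was 1.12. It was lost without atg5 NM library 1 or 3 (adjusted p = 0.0510 and 0.141) and in a fit of the atg5 libraries alone (adjusted p = 0.157).

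Counts of P5CDH were uncertain because its 3′ end overlaps SRO5 (AT5G62520, chr5:25097944-25099907, plus strand), a gene on the opposite strand that was singled out after its values were seen. P5CDH and SRO5 are known as a pair of overlapping transcripts in Arabidopsis, from which small RNAs can arise under salt stress. They share 811 exonic bases, 31.3% of P5CDH and 45.5% of SRO5. Counting took no account of strand in these tables: 631 genes above 100 counts lay with 90% or more of their exons inside those of an opposite-strand partner, and 625 of them had no more than 1.1 times its counts. Reads from the shared bases cannot be assigned to either gene.

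SRO5 was at 13.3, 21.3 and 22.8 CPM in wild-type NM and at 62.1 and 40.1 CPM in wild-type WSM, a log2 of 1.41 ± 0.28 (edgeR adjusted p = 0.0141). In atg5 it was at 17.4 and 18.4 CPM in NM and at 99.5, 78.1 and 69.5 CPM in WSM, a log2 of 2.20 ± 0.31 (edgeR adjusted p = 0.00176). SRO5 thus rose in both genotypes. Its counts were 48.9% to 64.3% of those of P5CDH in the NM libraries and 87.3% to 120.8% in the WSM libraries, and exceeded them in 4 of the 5 WSM libraries.

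The counts of the pair were then separated by solving for each gene, taking reads from the shared bases as counted for both genes and reads as spread evenly along each transcript. P5CDH then stood at 21.6, 28.8 and 29.3 CPM in wild-type NM and 36.4 and 32.3 CPM in wild-type WSM, a log2 of 0.37 ± 0.22 (edgeR adjusted p = 0.345). In atg5 it stood at 32.2 and 26.98 CPM in NM and at 43.4, 43.3 and 32.5 CPM in WSM, a log2 of 0.42 ± 0.22 (edgeR adjusted p = 0.271). The groups still did not overlap in either genotype, as for 56.8% of all genes in wild type and 32.7% in atg5, but the call of P5CDH was lost. In atg5 the margin was small, with 32.2 CPM in NM against 32.5 CPM in WSM. SRO5 was called after the same separation, at 1.90 ± 0.33 in wild type (edgeR adjusted p = 0.00733) and 3.02 ± 0.38 in atg5 (adjusted p = 0.00103). The called rise of P5CDH counts therefore cannot be told apart from the rise of SRO5 in these libraries.

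**Figure D3:**
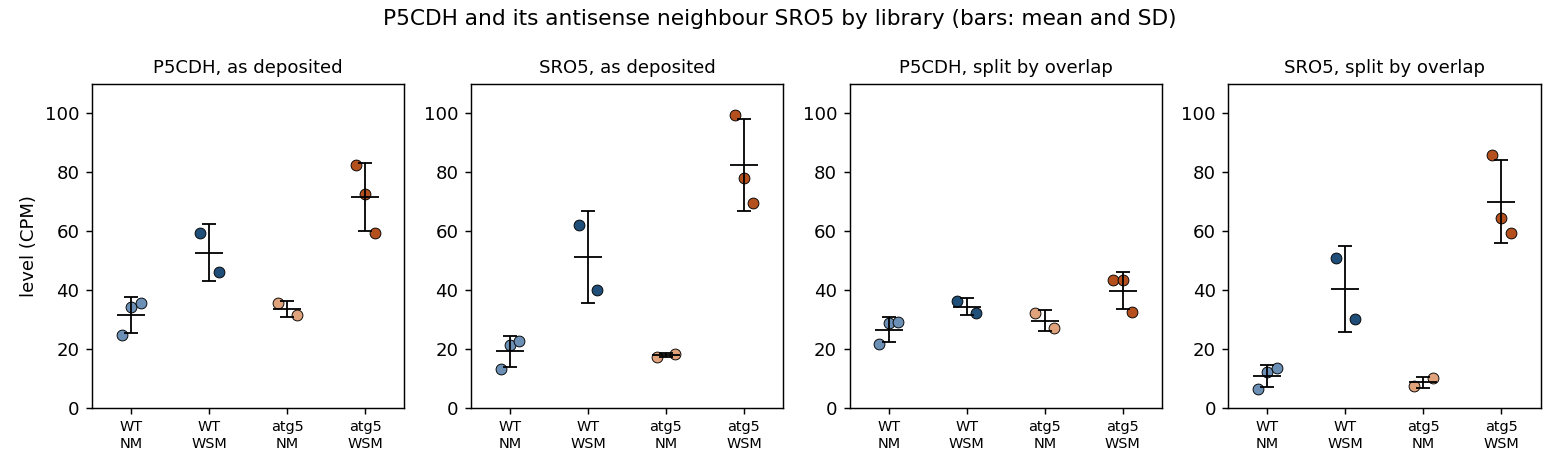
Counts of P5CDH and its opposite-strand neighbour SRO5 in each library (CPM), as counted and after separation by exonic overlap. SRO5 stood at 69.5 to 99.5 CPM in atg5 WSM as counted, and P5CDH moved from 59.5 to 82.4 CPM as counted to 32.5 to 43.4 CPM after separation.

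Of the carriers, ProT1 (AT2G39890, chr2:16655577-16658412, plus strand) was at 11.7, 9.82 and 6.54 CPM in wild-type NM and at 4.89 and 5.09 CPM in wild-type WSM. Both WSM libraries lay below all 3 NM libraries, as groups stood apart for 56.8% of all genes. The log2 was -0.90 ± 0.33 (edgeR adjusted p = 0.138), called in a fit of the wild-type libraries alone (-0.89, edgeR adjusted p = 0.0207). That fit called 2777 of all genes higher and 3009 lower. The authors' deposited table listed -0.90 in wild type with an adjusted p of 0.00976 and -1.15 in atg5 with 0.124, neither marked as differentially expressed. In libraries labelled atg5 it was at 13.5 and 8.11 CPM in NM and 3.74, 5.80 and 4.71 CPM in WSM. All 3 WSM libraries lay below both NM libraries, as groups stood apart for 32.7% of all genes. The log2 was -1.16 ± 0.32 (edgeR adjusted p = 0.0509), just outside the threshold, and called by DESeq2 (-1.14, adjusted p = 0.0167). Of all genes DESeq2 called 1681 higher and 978 lower. Without atg5 NM library 1 the log2 was -0.74, and without WSM libraries 1 and 3 it was -0.90, each with 1 library left in that group.

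ProT2 (AT3G55740, chr3:20695433-20698292, plus strand), the other carrier, was low in every library. It was at 5.64, 6.16 and 5.51 CPM in wild-type NM and 5.09 and 4.31 CPM in wild-type WSM, and at 5.66 and 4.13 CPM in atg5 NM and 3.74, 6.39 and 2.63 CPM in atg5 WSM. The wild-type groups did not overlap, as for 56.8% of all genes, and the atg5 groups did. The log2 fold changes were -0.30 ± 0.36 and -0.18 ± 0.36 (edgeR adjusted p = 0.669 and 0.797).

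The responses of the genotypes to WSM were set against each other by an interaction term. It called 0 of 8 members, where it called 0% of all genes, and 0 members had an unadjusted p under 0.05. In the simulated counts this term called 0% of genes changed by a log2 of 1 and 25% of those changed by 2, so a member difference of the sizes below could hardly be called. DESeq2 called 0 members. The largest member differences, atg5 minus wild type, were those of OAT at -0.62 ± 0.29 (edgeR adjusted p = 0.343) and P5CS2 at -0.55 ± 0.32 (adjusted p = 0.435). For P5CDH the difference was 0.35 ± 0.34 (edgeR adjusted p = 0.652), and 0.053 ± 0.31 after separation from SRO5. For PDH1 it was -0.30 ± 0.48 (edgeR adjusted p = 0.797), and -0.95 ± 0.48 without atg5 WSM libraries 1 and 3 (adjusted p = 0.409). Without these libraries OAT had -0.41 and P5CS2 -0.82, P5CS1 0.48 against 0.28 with all libraries, P5CR 0.60 against 0.19, ProT1 -0.0055 against -0.26 and ProT2 0.68 against 0.11.

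Libraries labelled atg5 were then compared with wild type within each medium. In the simulated counts a change of log2 1 was called for 6% of changed genes in NM and 5% in WSM. In NM 0 of 8 members were called by edgeR, where 0.147% of all genes were called, 2 had an unadjusted p under 0.05, P5CS2 and PDH1, and DESeq2 called 0. P5CS2 was higher in both atg5 NM libraries than in all 3 wild-type NM libraries, at a log2 of 0.66 ± 0.23 (edgeR adjusted p = 0.227). Groups without overlap were found for 38% of all genes in this comparison. PDH1 overlapped between the groups, at 0.82 ± 0.34 (edgeR adjusted p = 0.302). OAT did not overlap, at 0.31 ± 0.20 (edgeR adjusted p = 0.534). In WSM 0 of 8 members were called by edgeR, where 0.0355% of all genes were called, 0 had an unadjusted p under 0.05, and DESeq2 called 0. P5CDH lay higher in the atg5 libraries and OAT lower, both by a small margin and without overlap (27.4% of all genes), at 0.44 ± 0.24 and -0.31 ± 0.21 (edgeR adjusted p = 0.486 and 0.559). After separation from SRO5 the P5CDH groups overlapped, at 0.21 ± 0.22 (edgeR adjusted p = 0.732). Without atg5 WSM libraries 1 and 3 OAT had -0.10, and P5CR 0.61 against 0.20 with all libraries. PDH1 in WSM had 0.52 ± 0.35 (edgeR adjusted p = 0.559) and -0.13 without atg5 WSM libraries 1 and 3.

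Ratios of the genes within a library do not depend on its depth. PDH1 per kilobase was 2.96, 3.12 and 4.30 times P5CS1 in wild-type NM and 6.18 and 6.63 times in wild-type WSM. In atg5 it was 7.84 and 8.17 times in NM and 13.3, 5.52 and 11.98 times in WSM. Every atg5 NM library was thus above all wild-type libraries, and atg5 WSM library 2, at the lowest ratio of its group, lay below both atg5 NM libraries. The ratios were given no test, and the share of other gene pairs that stand apart was not computed. Between genotypes in NM both PDH1 and P5CS1 overlapped and were not called (edgeR adjusted p = 0.302 and 0.5345). P5CS2 was 1.91 to 2.79 times P5CS1 in the wild-type libraries, 4.96 and 4.402 times in atg5 NM and 3.36, 2.02 and 3.23 times in atg5 WSM. ProT1 was 1.32 to 2.31 times ProT2 in wild-type NM and 1.07 and 1.32 times in wild-type WSM, against 2.66 and 2.19 times in atg5 NM and 1.01 to 2.00 times in atg5 WSM.

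**Figure D4:**
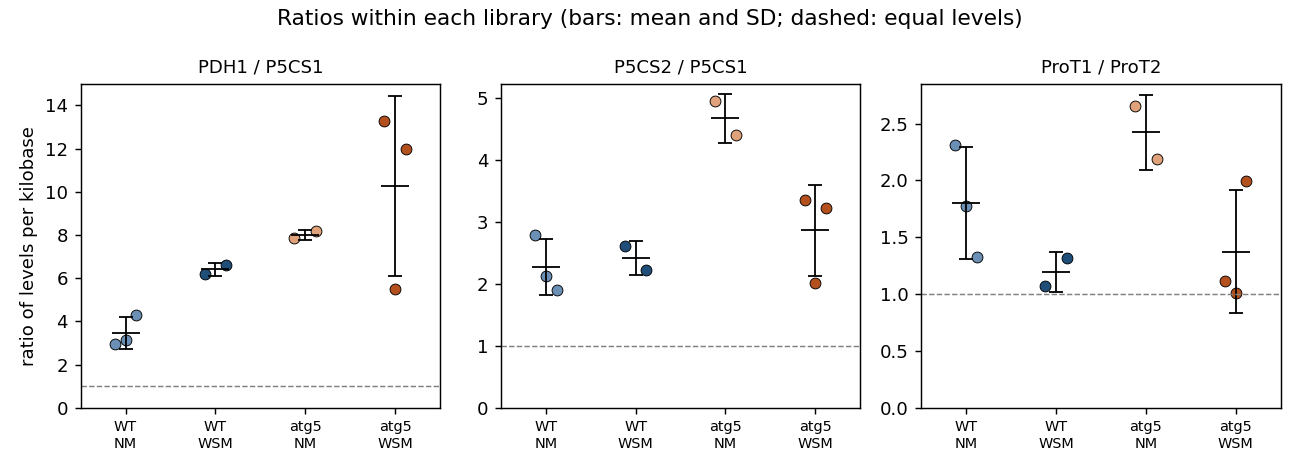
Ratios of levels per kilobase within each library: PDH1 over P5CS1, P5CS2 over P5CS1 and ProT1 over ProT2, with group means and SDs as bars and a dashed line at equal levels. PDH1 over P5CS1 was 2.96 to 4.30 in wild-type NM and 6.18 and 6.63 in wild-type WSM.

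Across the 10 libraries, as a description with no test, log2 levels of PDH1 and P5CDH had a Pearson r of 0.75, and those of PDH1 and ProT1 had -0.81. P5CDH and ProT1 had -0.84, and PDH1 and ProT2 had -0.78. P5CS1 had 0.097 with PDH1 and -0.34 with P5CS2. The libraries share 4 groups and differ in depth, so these values include group differences. P5CDH was taken as counted, with reads shared with SRO5. Among 13898 genes with means from 5 CPM upwards, PDH1 was most like AT1G06690 (0.98), AT5G10040 (0.98) and PDC1, a pyruvate decarboxylase gene (0.97). P5CS1 was most like AT2G35260 (0.90), AT3G44970 (0.88) and APS1, an ATP sulfurylase gene (0.87).

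The genes around the pathway, 45 listed and 41 measured, supply glutamate, ornithine and arginine, carry amino acids or regulate the pathway. In wild type 1 was called by edgeR (5.89% of all genes), NAGK, the regulated kinase of ornithine and arginine synthesis, which fell in WSM. It was at 39.5, 47.2 and 42.2 CPM in NM and 25.4 and 24.6 CPM in WSM, a log2 of -0.78 ± 0.20 (edgeR adjusted p = 0.0468). That call was lost without any 1 of the 5 wild-type libraries, as the count of calls in the list was then 0. In atg5 1 was called (7.86% of all genes), bZIP1, a factor of the group that binds ACTCAT, which rose in WSM. It was at 3.95 and 3.69 CPM in NM and at 15.4, 10.55 and 9.35 CPM in WSM, a log2 of 1.59 ± 0.29 (edgeR adjusted p = 0.00772), against -0.12 ± 0.27 in wild type. Wild-type means were 8.83 CPM in NM and 8.13 CPM in WSM, so the atg5 NM pair was the low group. The difference of the responses to WSM was 1.72 ± 0.39 and was not called (edgeR adjusted p = 0.194). Between genotypes in NM bZIP1 had -1.21 ± 0.28, also not called (edgeR adjusted p = 0.113). The call of bZIP1 was lost without atg5 NM library 3 and in a fit of the atg5 libraries alone. By list, 0 of 10 glutamate supply genes, 1 of 14 ornithine and arginine genes (down, in wild type), 0 of 8 amino acid transporters and 1 of 9 regulators (up, in atg5) were called in the medium comparisons. An unadjusted p under 0.05 was found for 9 in wild type and 7 in atg5 (22.5% and 25.2% of all genes), and DESeq2 called 4 in each. Of all genes DESeq2 called 998 higher and 1173 lower in wild type, and 1681 higher and 978 lower in atg5. Between genotypes 0 of 41 were called by edgeR in either medium and 0 in the interaction, with 9, 2 and 5 at an unadjusted p under 0.05 and 1, 0 and 2 called by DESeq2, in NM, in WSM and in the interaction in turn. Of all genes edgeR called 0.147%, 0.0355% and 0%, and 13.9%, 12% and 15.1% had an unadjusted p under 0.05, in the same order. DESeq2 called 296 up and 299 down in NM, 281 up and 62 down in WSM, and 259 up and 155 down in the interaction.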

How the data were processed

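Of the 2 tables the authors deposited, 1 per genotype, each holds raw read counts for its libraries. Per the file headers the deposited tables also give log2 fold changes, standard errors and test statistics (scores without a fixed range), and p-values. A further 10 per-sample columns were not used. RNA was made into stranded mRNA libraries, and bcl2fastq, Bowtie2, bedtools, DESeq2 and TAIR10 are named, per the labels' protocols and the submitters' processing notes; no version is given in the sources used here. Every listed gene had over 1 CPM in at least 2 libraries of its table.

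Column numbers did not match titles, so columns were given groups only; 2 of 12 labelled samples have no column used here. Genes shared by both tables (19714) went into edgeR 4.0.16 (limma 3.58.1, R 4.3.3; TMM, quasi-likelihood, 4 groups, 6 residual degrees of freedom, biological coefficient of variation 28.2%). The filter filterByExpr removed 0 genes. SE came from the F statistic, and the code was tested on simulated counts. Symbols, positions and promoters are from RefSeq TAIR10.1, to which 20762 of 20780 IDs matched. The members, gene lists and alternatives were chosen with earlier results of these data known. Named genes were all members, up to 3 called genes per list and comparison, and the 3 genes most like P5CS1 and PDH1. Alternatives included DESeq2 1.42.0 and each library left out in turn. Separating counts of P5CDH and SRO5, and fitting each table alone, were chosen after seeing the data. Subtracting all SRO5 counts from P5CDH was tried first and dropped, since SRO5 exceeded P5CDH in 4 of 5 WSM libraries.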

Additional observations from a re-analysis of the deposited data

How the results depend on the processing

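Counts of called members depended on the setting. In wild type 0 were called by edgeR, with 0 at every leave-one-out fit, but 1 by DESeq2, 3 (PDH1, P5CDH and ProT1) when only the groups compared or each table alone were fitted, and 2 without atg5 WSM libraries 1 and 3, which hold PREP1 counts. Of all genes the joint fit called 644 up and 517 down there. DESeq2 called 998 and 1173, only the groups compared gave 2777 and 3009, and each table alone gave 2802 and 3031. Leaving out the libraries with PREP1 counts gave 1260 and 1553. In atg5 1 was called, and 2 with DESeq2, RLE size factors or without rRNA-region genes. Of all genes the joint fit called 1029 up and 520 down in atg5, DESeq2 1681 and 978, and RLE size factors 1025 and 498. Without rRNA-region genes these were 1035 and 504. The atg5 count was 0 when only the groups compared or each table alone were fitted, with the column number as a block, and when P5CDH and SRO5 counts were separated. Leaving out 1 library gave 0 to 3 members, the 3 being OAT, ProT1 and P5CDH without atg5 WSM library 2. Without that library 1485 of all genes were called up and 941 down. The block gave P5CDH in atg5 a log2 of 1.19 (edgeR adjusted p = 0.0838). Correlations of deviations from the group mean between same-numbered libraries were 0.10 and 0.15 in wild type and -0.26 and -0.027 in atg5. In a group of 2 libraries the deviations mirror each other, so these values cannot settle whether column numbers pair the libraries.

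Among the 41 related genes the wild-type count of 1 was 4 with DESeq2, 11 when only the groups compared or each table alone were fitted, 3 without the libraries with PREP1 counts, and 0 with the block or without the 2 libraries richest in rRNA, with 0 to 3 on leaving out 1 library. The counts over all genes rose with the same settings, to 2777 up and 3009 down with only the groups compared. The atg5 count of 1 was 4 with DESeq2, 0 with only the groups compared or each table alone, 2 with the block or after length correction, 3 without the rRNA-rich or the PREP1 libraries, and 0 to 5 on leaving out 1 library. In NM the genotype count of 0 was 1 with DESeq2 or without the PREP1 libraries and 0 to 1 on leaving out 1 library, and the count of 0 in the interaction was 2 with DESeq2. The count over all genes ran from 272 to 5833 in wild type, 303 to 2771 in atg5, 0 to 414 in the interaction, 0 to 595 in NM and 0 to 343 in WSM. The joint fit called 1161, 1549, 0, 29 and 7.

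Values that changed sign were never called by edgeR. With the block these were OAT in wild type (0.081), P5CDH in NM between genotypes (-0.076), P5CS1 in WSM between genotypes (0.089), and the interactions of PDH1 (0.11) and ProT2 (-0.26). Without the rRNA-rich libraries they were OAT in wild type (0.089), P5CDH (-0.076) and P5CR (-0.064) in NM, P5CR in atg5 (0.070), and P5CS2 (-0.0082) and ProT1 (0.066) in WSM. After length correction they were P5CDH in NM (-0.094), the interaction of P5CR (-0.034), P5CS1 (0.098) and ProT1 (0.035) in WSM, and P5CS1 (-0.19) and P5CS2 (-0.054) in wild type. Without rRNA-region genes it was P5CR in NM (-0.021), and P5CR in atg5 was 0.012 with only the groups compared and 0.011 with each table alone. Without the PREP1 libraries they were P5CR (0.40) and ProT2 (0.38) in atg5, and P5CS1 (0.090), P5CS2 (-0.17), PDH1 (-0.13), ProT1 (0.22) and ProT2 (0.45) in WSM. Leaving out 1 library gave ranges across 0 for OAT in wild type (-0.13 to 0.089), P5CDH in NM (-0.076 to 0.19), P5CR in NM (-0.17 to 0.17), in WSM (-0.068 to 0.36), in atg5 (-0.28 to 0.17) and in the interaction (-0.075 to 0.37), P5CS1 in wild type (-0.010 to 0.15) and in the interaction (-0.040 to 0.69), and the interaction of PDH1 (-0.65 to 0.14). The same held for ProT1 in NM (-0.20 to 0.54), in WSM (-0.21 to 0.077) and in the interaction (-0.57 to 0.16), and for ProT2 in WSM (-0.62 to 0.17), in atg5 (-0.69 to 0.10) and in the interaction (-0.38 to 0.40). The cause of these changes was not tested. Removing the filter changed no value. ProT2 had 19 to 194 counts per library, and ProT1 19 to 403, which limits their precision.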
